A study of Rattus norvegicus with 8 samples.

Results

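The transcriptome of resting primary rat chondrocytes was described from the 2 arrays of DMSO-treated cells, out of 8 arrays in the study. Both samples were chosen by their label alone, 1 from each of 2 biological replicates that the methods treat as independent experiments, and they are called experiment 1 and experiment 2 here. The cells came from the femoral condyles of 1 day old Sprague Dawley rats, taken from the upper cartilage to avoid hypertrophic cells, and were grown as a monolayer on plastic in RPMI-1640 medium with 5% foetal bovine serum. After a night without serum they received DMSO, the solvent of the inhibitor, for 30 minutes and then bovine serum albumin, the vehicle of TNFα, for 24 hours. The other groups, of 2 samples each, shared the source, culture and serum starvation and received the MEK1/2 inhibitor U0126 in place of DMSO, TNFα (TNF-a in the labels) at 30 ng/ml in place of its vehicle, or both. The sex of the animals and the number pooled per culture are not given in the sources used here. The cells were thus cultured and starved of serum, and no freshly isolated cartilage was analysed here.

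Chondrocytes are the cells of cartilage, and they surround themselves with a matrix of type II, IX and XI collagen fibrils that hold aggrecan, a large proteoglycan bound to hyaluronan through link protein. They are known to lose this pattern slowly on plastic, where type I collagen and other fibroblast genes come up. Growth factors of the IGF, FGF, TGF-β and hedgehog families steer their division, matrix production and maturation, and hypertrophic chondrocytes, the last stage before bone, are known by type X collagen.

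Each of 14217 named genes was given by its probe set of highest mean on these 2 arrays. Deposited intensities on a linear scale ran from 15.2 to 34474 over both arrays, with medians of 367.7 and 370.5 over all probe sets but controls in experiments 1 and 2. Probes differ in how strongly they bind, so the order of genes given here is an order of signal and not of transcript number. Because no detection calls were used, a reference level was set on each array as the 95th percentile of 86 genes of distant tissues such as liver, eye, pancreas and testis. It was 433.6 in experiment 1 and 476.3 in experiment 2, and 8339 genes (58.7%) lay above it on both arrays. Uox (938 and 908), Prm2 (577 and 648), Ins1 (511 and 478) and Th (457 and 514) were the 4 reference genes above it. The genes next above the level were Wdr44, Sytl2 and Cst8, and those next below were Slc31a2, Mbd6 and Irf7. A gene close to the level, or no brighter than these 4 reference genes, is thus not known to be on or off. The 2 arrays correlated at 0.986 over genes (Pearson's r of log2 values, across genes, which are not independent replicates). The median gene differed between them by 1.09-fold, and 5% of genes differed by more than 1.58-fold.

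All of the 5 chondrocyte markers lay far above the reference level on both arrays, and none went against the label. Col2a1, which encodes type II collagen, had intensities of 31956 in experiment 1 and 26848 in experiment 2. Acan, which encodes aggrecan, had 21478 and 11325, and Hapln1, which encodes link protein, had 21083 and 7836. Matn1, which encodes the cartilage protein matrilin-1, had 17702 and 13214. Cnmd, which encodes chondromodulin, an inhibitor of vessel growth made in cartilage, had 17470 and 8131. Each marker was higher in experiment 1, and each stood above at least 98.7% of the named genes by its mean. Where a marker had further probe sets they were not equally bright. The 2 other Col2a1 probe sets read 2770 and 1104, and 853 and 1955. When every gene was given by its dimmest probe set, Col2a1 stood above 78.41% of genes. The second Acan probe set read 19653 and 8361, and the other 2 of Hapln1 read 9398 and 4172, and 7154 and 4064, so the lower level in experiment 2 was seen with every probe set of these 2 genes.

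The 30 genes with the highest mean signal were led by Col1a1, Eef1a1, Rps29, Col2a1 and Igf2. Ribosomal proteins made up 17 of them, with Rps29 (29027 and 30133) and Rpl7a (28850 and 29011) the brightest, and Eef1a1, the elongation factor that brings transfer RNA to the ribosome, had 31512 and 30637. COX1 and COX2, mitochondrial subunits of cytochrome oxidase, had 27678 and 28700, and 25246 and 26112. Collagens held the 1st and 4th places, since Col1a1, a chain of type I collagen, read 30148 and 34474, above the 31956 and 26848 of Col2a1 only in experiment 2. The order of the 2 collagens was thus opposite in the experiments. Col1a2, the partner chain of Col1a1, had 23443 and 26637.

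The other secreted products in the 30 were Igf2, Mgp, Sparc and Ccn2. Igf2, a fetal growth factor, read 30358 and 28056, and H19, the noncoding RNA of the same imprinted locus, read 28193 and 25098. Mgp, an inhibitor of mineral deposition, had 24917 and 25418. Sparc, a collagen-binding matrix protein, had 23279 and 24809, and Ccn2 (connective tissue growth factor) had 24251 and 23194. Vim, the intermediate filament of mesenchymal cells, had 24859 and 26471, and Gnas, the stimulatory G protein subunit, had 22078 and 27708, the widest spread among the 30 at 1.25-fold. The median difference among them was 1.03-fold, and the mean of the brightest (32311) was 1.36 times that of the 30th (23722), so neighbours in this order do not stand apart. The genes next outside were Rps3a, Rpl27 and Serpinh1. Near the top of the scale probes can saturate, which compresses such ratios and was not tested here. Ribosomal protein genes have many pseudogenes with near-identical sequence, and their probe sets may share signal.

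Ribosomal protein messages are known to begin with a run of pyrimidines that ties their translation to growth signals, and since they dominate the brightest genes, the start of 3 of them is shown beside 2 cartilage genes. The sequences are 30 bases on each side of the annotated start from RefSeq (build GRCr8), 5′ to 3′ on the strand of the gene, and capitals mark CTTTC where it lies between 5 bases before and 15 bases after the start.
Rpl19, chr10:83519034-83519093, plus strand: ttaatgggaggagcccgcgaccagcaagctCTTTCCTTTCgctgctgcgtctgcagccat
Rpl27a, chr1:172974543-172974602, plus strand: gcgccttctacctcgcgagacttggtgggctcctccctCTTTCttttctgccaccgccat
Rps23, chr2:23814487-23814546, plus strand: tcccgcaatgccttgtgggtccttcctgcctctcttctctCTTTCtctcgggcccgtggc
Acan, chr1:142390921-142390980, plus strand: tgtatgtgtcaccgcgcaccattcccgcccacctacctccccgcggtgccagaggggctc
Hapln1, chr2:22366937-22366996, plus strand: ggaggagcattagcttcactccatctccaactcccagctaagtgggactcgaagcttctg
In this window CTTTC was found on the strand of the gene in 20 of 65 ribosomal protein promoters (30.8%) and in 699 of 33469 promoters of all genes (2.09%). On the opposite strand the shares were 1.54% and 2.44%. The 3 ribosomal protein genes shown all hold CTTTC, so they are not typical of the 65. CTTTC was found in 0 of 15 promoters of the cartilage matrix genes listed next, on either strand. With a share of 2.09% over all promoters, 15 are too few to set these genes apart from all genes. Promoters were at hand for 15 of the 22 measured members, and not for Col2a1. Of 44 ribosomal protein genes measured, 38 were among the highest 10% of genes (10.0% of all genes by definition). The match is a description of the letters, and an annotated start can lie some bases from the one in use.

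Genes of the cartilage matrix were bright as a group. Of 22 measured members, 19 lay above the reference level on both arrays, against 58.7% of all genes, and 16 were among the highest 10% of genes. Besides the 5 markers these were led by Fmod (23413 and 21077), a collagen-binding proteoglycan, and by the minor fibril collagens. Col9a1, a chain of type IX collagen, had 24848 and 17391, and Col11a1, a chain of type XI collagen, had 22475 and 17384. Comp, which links matrix proteins and is known from cartilage and tendon, had 15012 and 11875. At the lower end Clec3a, a cartilage lectin, read 3496 and 596. Ucma (328 and 403), made in the upper growth plate, Chad (201 and 141), which binds collagen and integrins, and Crtac1 (144 and 149) were the 3 members below the level. The plot of the matrix lists shows that cartilage genes and those of other connective tissues overlapped in brightness.

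**Figure D1:**
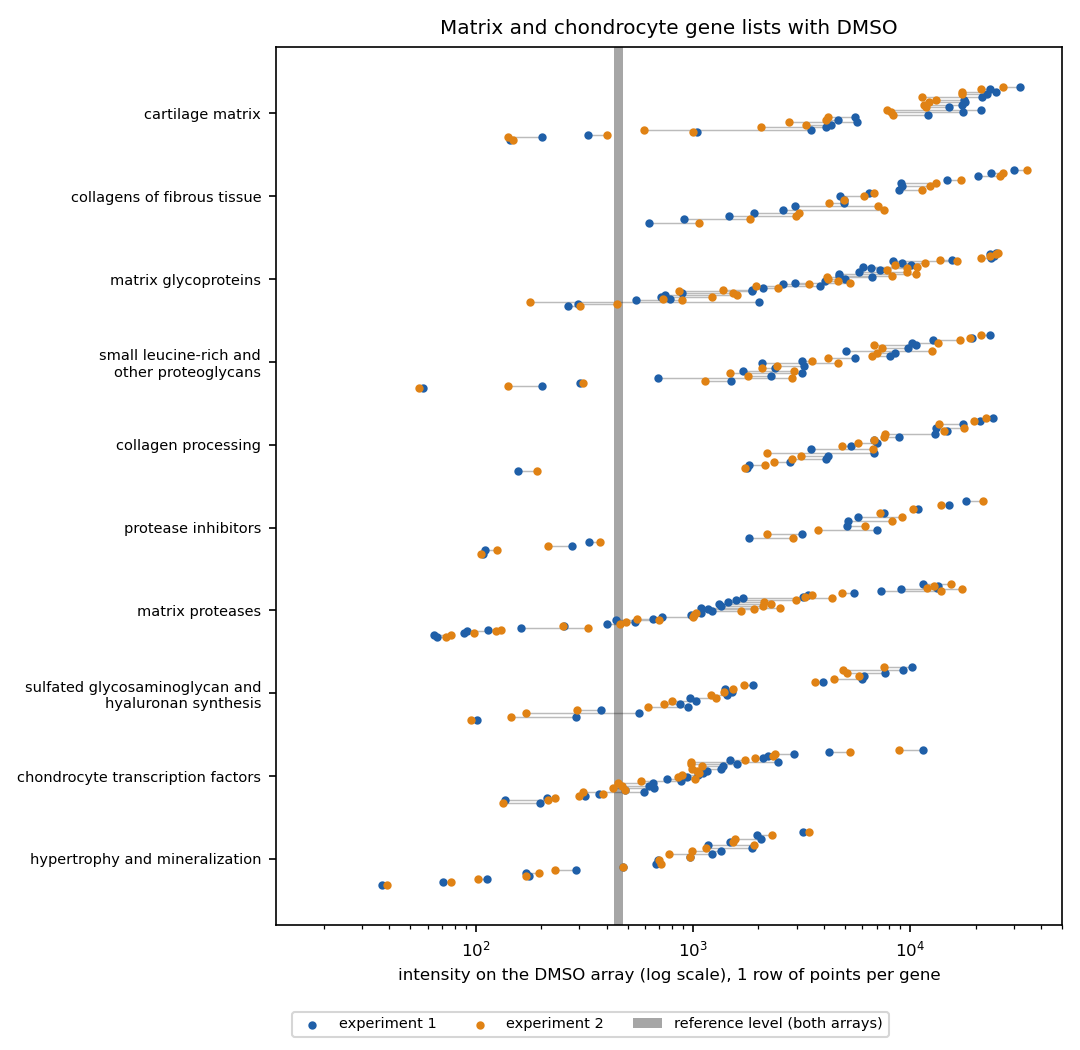
Intensity on the DMSO arrays (horizontal log axis) of the measured members of 10 lists (vertical axis), 1 row of points per gene, in blue for experiment 1 and in orange for experiment 2, with a grey line joining them. The grey band runs from 433.6 to 476.3, the reference levels of the 2 arrays. All 17 collagens of fibrous tissue and basement membrane and 19 of 22 cartilage matrix genes lie to its right.

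Collagens of fibrous tissue and basement membrane were present beside those of cartilage. All 17 measured lay above the reference level, against 58.7% of all genes, and 13 were among the highest 10% of genes. Col3a1, the collagen of loose connective tissue, had 20434 and 25815, and Col5a2, which sets the width of type I fibrils, had 14752 and 17198. Col14a1, which coats such fibrils, had 9050 and 13081. The type VI chains Col6a1 (8864 and 11276) and Col6a2 (9195 and 12365), which form the fine mesh next to the cell, were of similar signal. Both chains of basement membrane collagen, Col4a1 (2603 and 7569) and Col4a2 (2943 and 7124), were more than 2 times as bright in experiment 2.

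Small proteoglycans and glycoproteins of the matrix showed the same mixture. Of 22 proteoglycan genes 19 lay above the level and 10 were among the highest 10%. Of 31 glycoprotein genes 28 lay above it, with 18 among the highest 10%. Over all genes 58.7% lay above the level. Bgn, the proteoglycan biglycan, had 19232 and 18871 and hardly differed between the arrays. Dcn, which encodes decorin and is made by most fibroblasts, had 5071 and 12559, and Vcan, the large proteoglycan of soft connective tissue, had 691 and 2866. Fn1, which encodes fibronectin, had 23601 and 21278, and Ccn3, a matrix signalling protein, had 15633 and 13763. Ccn1, a member of the same family, stood at 2023 in experiment 1 and 178 in experiment 2, on either side of the reference level. The elastic fibre genes Mfap4 (8327 and 16447) and Eln (6608 and 9681) were both higher in experiment 2.

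The enzymes that build and fold the matrix were also bright. Of 18 genes of collagen processing 17 lay above the level, against 58.7% of all genes, and 13 were in the highest 10%. Serpinh1, the collagen chaperone Hsp47, had 24021 and 22438, P4hb, a subunit of prolyl hydroxylase, had 20864 and 19661, and Lox, which cross-links collagen, had 14790 and 14377. These 3 differed little between the arrays. Of 18 genes that make glycosaminoglycans 14 lay above the level, with 6 in the highest 10%. Papss1 (10209 and 7540) and Papss2 (9276 and 4919), which make the sulfate donor, were the brightest, followed by the chondroitin synthase Chsy1 (7687 and 5143). Has2, a hyaluronan synthase, had 1430 and 1211. Slc26a2, the sulfate transporter that is mutated in chondrodysplasia, had 566 and 170, above the level in experiment 1 only.

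Proteases that degrade the matrix were less often above the level than its structural genes, as a count and with no test. Of 30 proteases 22 lay above the level, more than the 58.7% of all genes. The highest 10%, which holds 10.0% of all genes by definition, held 6 of them. The lysosomal cathepsins Ctsb (11468 and 15496), Ctsl (13453 and 12917) and Ctsd (13353 and 11905) were the brightest with Mmp14, a membrane collagenase (9031 and 17353), and Mmp2, a gelatinase (7315 and 13927). Both metalloproteinases were higher in experiment 2. The aggrecanases Adamts5 (3211 and 3291) and Adamts4 (1228 and 1655) and the collagenase Mmp13 (1171 and 1919) lay above the level. Mmp9 (91 and 124), Mmp12 (161 and 327) and Mmp8 (88 and 98) lay below it. Of 14 inhibitors 10 lay above the level and 8 were in the highest 10%. Timp2, which binds Mmp14 and Mmp2, had 18021 and 21670, Timp3, a matrix-bound inhibitor of aggrecanases, had 7051 and 3745, and Reck, a membrane inhibitor, had 10868 and 10325.

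Of 26 transcription factors known from chondrocytes, 17 lay above the level and 2 were in the highest 10%. Those 2 were Hif1a, the factor of the response to low oxygen, at 11479 and 8919, and Trps1, a repressor of the growth plate, at 4234 and 5280. Sox6, which acts with Sox9 on cartilage genes, had 2461 and 979, and its second probe set, at 330 and 102, lay below the level. Barx1, a factor of joint cartilage, had 2923 and 2393. Sox9 and Sox5 were not analysed here. Of 18 genes of hypertrophy and mineralization 12 lay above the level, with 0 in the highest 10%. Both shares above the level are near the 58.7% of all genes and are not read as particular to these lists. Col10a1, the defining collagen of hypertrophic cells, read 175 and 171, and the bone matrix genes Ibsp (37 and 39) and Bglap (71 and 77) were lower still. Ihh, the signal of prehypertrophic cells, lay just above the level on both arrays at 477 and 478. The others above it included Vegfa, a vessel growth factor (3218 and 3410), and Spp1, which encodes osteopontin (2058 and 1569).

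In the insulin-like growth factor system 12 of 17 genes lay above the level, against 58.7% of all genes, and 7 were in the highest 10%. Besides Igf2 these included the ligand Igf1, at 4936 and 10735, about 2.16-fold higher in experiment 2. The receptors were Igf2r, which takes up and degrades Igf2, at 10995 and 8173, and Igf1r, the signalling receptor, at 2970 and 3373. The binding proteins Igfbp5 (9909 and 14492), Igfbp7 (5443 and 10203) and Igfbp4 (4086 and 6817) were higher in experiment 2, and Igfbp1 (176 and 189) lay below the level. Irs1, an adaptor of both the insulin and the IGF receptor, had 1385 and 286, while Irs2 had 1413 and 1212. The very bright Igf2 value came from 1 of its 4 probe sets, and the other 3 read between 94 and 242 on both arrays.

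In the fibroblast growth factor system 5 of 21 genes lay above the level, against 58.7% of all genes, and 4 of the 5 were receptors in the highest 10%. Fgfr1 had 8773 and 9489, and Fgfr2 had 8534 and 7723. Fgfr3, which restrains growth plate chondrocytes, had 7513 and 3648, and Fgfrl1, a receptor that lacks the kinase, had 8619 and 5698. The receptor Fgfr4 (420 and 331) lay below the level. Among the ligands, Fgf7 (577 and 610) lay above it. Fgf18 (95 and 95), Fgf9 (191 and 187) and Fgf2 (208 and 205), ligands known to act on chondrocytes, lay below it on both arrays, as did the others measured. The plot of the growth factor systems shows the gap between these 4 receptors and every ligand.

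**Figure D2:**
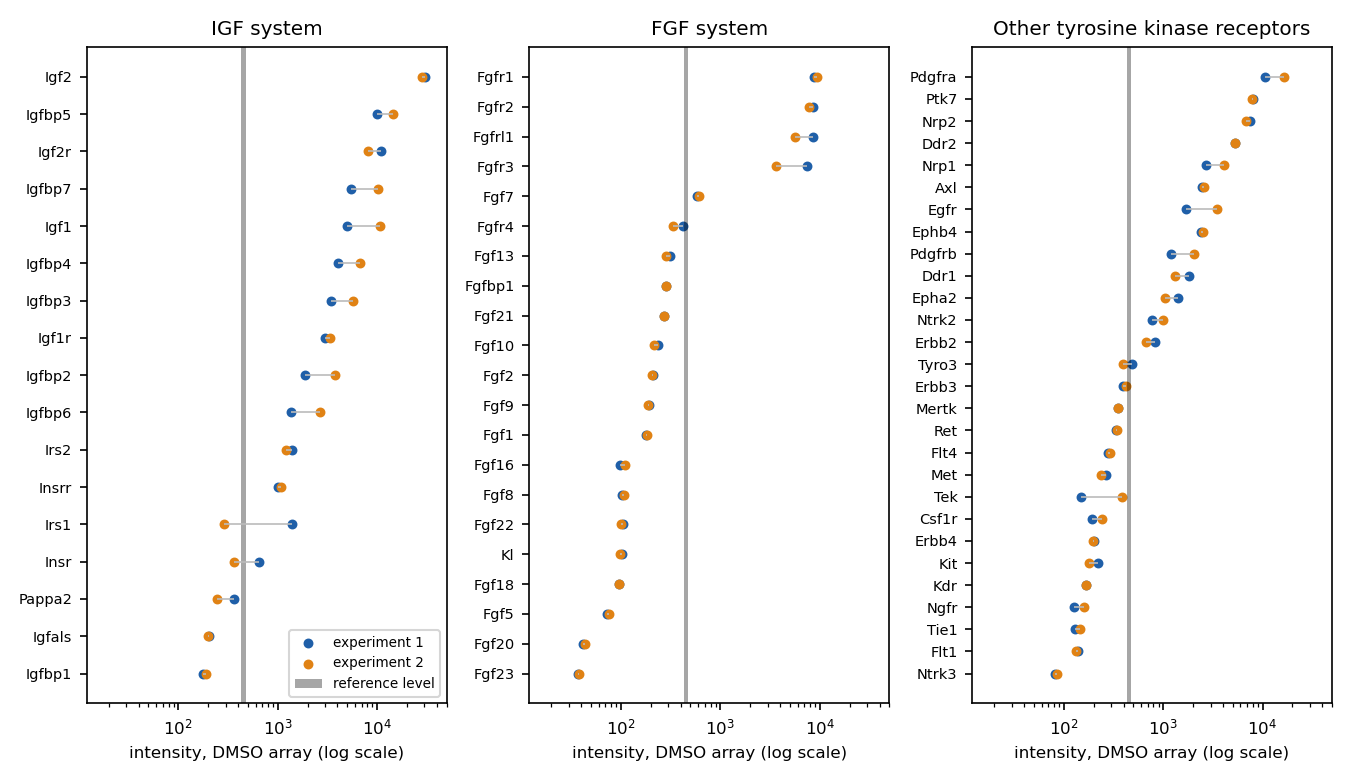
Intensity on the DMSO arrays (horizontal log axis) of each measured gene (vertical axis), in blue for experiment 1 and in orange for experiment 2. Panels hold the IGF system, the FGF system and other tyrosine kinase, neurotrophin and neuropilin receptors. The grey band is the reference level, and in the FGF panel 4 receptors read from 3648 to 9489 while the brightest ligand, Fgf7, read 577 and 610.

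Of 31 ligands and antagonists of the TGF-β and BMP families 22 lay above the level, with 1, the follistatin-like Fstl1 (15325 and 16314), in the highest 10%. Over all genes 58.7% lay above the level. Tgfb3 (3125 and 3716), Tgfb2 (2642 and 2251) and Tgfb1 (1771 and 1556) were all above it, as were Bmp4 (1882 and 1807) and the BMP antagonists Grem1 (1884 and 1347) and Nog (2221 and 1078). Among receptors and Smads, the proteins that carry the signal to the nucleus, 13 of 19 lay above the level and 0 were in the highest 10%. Smad4, the shared partner of both branches, had 3700 and 3365, and the receptors Tgfbr1 (2058 and 1981) and Bmpr1a (3118 and 2340) were above the level. Acvrl1, a receptor of vessel walls, had 261 and 616.

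Of 28 other tyrosine kinase, neurotrophin and neuropilin receptors 13 lay above the level, against 58.7% of all genes, and 4 were in the highest 10%. They were Pdgfra, the PDGF receptor of mesenchymal cells (10581 and 16465), Ptk7, a receptor of planar polarity (8086 and 7784), Nrp2, a coreceptor for VEGF and semaphorins (7506 and 6801), and Ddr2, a receptor for fibrillar collagen (5306 and 5240). Egfr had 1710 and 3512. Among 29 growth factors for such receptors 12 lay above the level, and Ptn, which encodes pleiotrophin, was the 1 in the highest 10%, at 6006 and 15697. Csf1, the macrophage growth factor, had 2895 and 3531, although its receptor Csf1r (192 and 241) lay below the level.

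In the hedgehog, parathyroid hormone-related and natriuretic peptide systems 6 of 17 genes lay above the level, against 58.7% of all genes. Npr2, the receptor for C-type natriuretic peptide, had 2755 and 3754, Smo, which relays hedgehog signals, had 2415 and 1770, and Pth1r had 1219 and 776. Among the ligands Nppc (70 and 74) and Pth (52 and 54) lay below the level and Ihh (477 and 478) just above it, and Gli1, a target of hedgehog signals, had 318 and 298. Of 31 Wnt genes 14 lay above the level, also under the share of all genes. In the highest 10%, which holds 10.0% of all genes by definition, were 3 of the 31, near that share. Of these, Sfrp2 (21178 and 24879) and Frzb (15193 and 6780) encode secreted Wnt inhibitors and Lrp6 (4216 and 8813) a Wnt coreceptor. Wnt1 had 1664 and 1668, although its own expression in chondrocytes was not checked by any other measure here.

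Of the 2 TNF receptors 1 lay above the level in cells given DMSO and vehicle, as did both kinases that U0126 inhibits. Tnfrsf1a, the TNF receptor present on most cells, had 5833 and 6367, and Tnfrsf1b, the receptor mainly of leukocytes, had 138 and 150. Map2k1 (3712 and 2831) and Map2k2 (2652 and 2663) encode MEK1 and MEK2, the targets of U0126. Grb2, the adaptor between receptors and Ras, had 3134 and 3024, and Egr1, a transcription factor that ERK signals induce, was the brightest of the 24 genes at 3554 and 4660. Nfkb1 had 2779 and 2753 and Rela 1918 and 2134, both subunits of NF-κB. Of the 24 genes from the TNF receptor to MEK/ERK and NF-κB, 20 lay above the level, against 58.7% of all genes.

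Receptors for inflammatory signals lay above the level in 14 of 30 cases and inflammatory ligands in 5 of 34, against 58.7% of all genes. The receptors in the highest 10% were Tnfrsf1a, Ltbr (4344 and 4621) and Il6st, the shared subunit of the IL-6 receptors (4188 and 3811). Il1r1, the signalling IL-1 receptor, had 642 and 1132. Among the ligands, Cxcl12, a chemokine of stromal cells, read 4974 and 11756. The other 4 were Cx3cl1 (1173 and 2162), Tnf (620 and 673), Cxcl1 (584 and 674) and Ccl4, which lay close to the level at 445 and 545. Il1b (107 and 121), Il6 (47 and 48) and Ifng (28 and 31) lay below it. Ccl2 (278 and 836) and Ccl20 (401 and 830) were above it in experiment 2 only, and with that array alone 8 ligands were counted.

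Genes of adhesion, contraction, division and energy supply completed the picture. Of 22 integrins and matrix receptors 14 lay above the level, a share near the 58.7% of all genes, and the brightest was Itgb1, the shared β1 chain (8972 and 10403). Of 16 contractile genes of the smooth muscle type 10 lay above it, again near the share of all genes, and 8 were in the highest 10%. Tagln had 8293 and 4736 and Acta2 4189 and 3393, both known from spread cells in culture, while Myh11 (307 and 358), which marks mature smooth muscle, lay below it. Of 28 genes of cell division 25 lay above the level, among them Mki67 (1838 and 2080) and Top2a (1972 and 1946), so transcripts of dividing cells were present after a day without serum. Of 17 glycolytic genes 15 lay above it, with Eno1, the enzyme enolase, at 19360 and 13264.

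Marker lists of 13 other cell types were then read in the same way, beside the 58.7% of all genes above the level. In bulk RNA, fewer cells of a type and less RNA per cell cannot be told apart. Defining markers of blood cells and vessels were below the reference level on both arrays. For macrophages, 0 of 4 defining markers were above it, with Ptprc, the leukocyte antigen CD45, at 67 and 69, Csf1r at 192 and 241, Itgam at 312 and 313 and Adgre1 at 30 and 202. Still, 5 of the 19 macrophage genes were above it, led by Ctss, a cathepsin of antigen-presenting cells (742 and 1697), Cd14 (957 and 1114) and Lyz2, which encodes lysozyme (602 and 1245). For endothelium, Pecam1 (78 and 80) and Tie1 (131 and 145) were below and 3 of 12 genes above. Of 14 lymphocyte genes 2 were above the level, of 9 erythroid genes 2, of 9 granulocyte and mast cell genes 0, and of 12 epithelial genes 0. Every defining marker of these lists that was measured lay below it. They were the T cell receptor subunit Cd3e (382 and 407), the erythroid factor Klf1 (226 and 221) and the haem synthesis enzyme Alas2 (213 and 225), the mast cell protease Cpa3 (358 and 340), and the epithelial adhesion proteins Epcam (156 and 106) and Cdh1 (47 and 46).

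Neighbouring skeletal tissues gave mixed readings. Both defining markers of tendon and synovial fibroblasts were above the level. Tnmd, which encodes tenomodulin, had 1101 and 3261, and Scx, the tendon transcription factor scleraxis, had 1382 and 1215. Of 11 genes of the list 7 were above the level, near the 58.7% of all genes. Of 9 osteoblast genes 1 was above, Pdpn (6483 and 7539), which is also made by fibroblasts. The defining Bglap and Ibsp were below it. Of 6 osteoclast genes 2 were above, the collagen-cleaving Ctsk (1692 and 4386) and Acp5 (591 and 620), with the calcitonin receptor Calcr at 137 and 147. For smooth muscle and pericytes 2 of 10 were above, Cspg4 (3182 and 1479) and Pdgfrb (1210 and 2031), while the pericyte marker Rgs5 (129 and 111) and Myh11 were below it. For nerve and glia the 1 of 10 was S100b (10386 and 7621), a calcium-binding protein that chondrocytes are known to make, and the synaptic Snap25 (334 and 394) was below the level.

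Skeletal muscle gave 1 of 14 genes above the level, and that gene was bright. Myh1, a fast myosin heavy chain, read 4410 and 7552, and all 5 of its probe sets read between 2469 and 7552. The other muscle genes were low, with the creatine kinase Ckm at 123 and 127, the actin Acta1 at 60 and 62 and the regulator Myog at 355 and 417. Whether these probe sets bind another transcript was not tested.

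Adipocyte genes were the list on which the arrays parted. On both arrays 6 of 12 were above the level, and 11 were above it when experiment 2 was read alone. The defining markers Plin1, the coat protein of lipid droplets (395 and 3354), and Adipoq, which encodes adiponectin (315 and 1613), were below it in experiment 1 and above it in experiment 2. Lep, which encodes leptin, was below it on both (193 and 162), and the lipase Lipe (2365 and 2633) was above it on both. The plot of other cell types shows how the adipocyte values spread apart, with a median log2 difference of 2.38 between the arrays beside 0.65 for tendon and synovial fibroblasts, the next widest of these lists.

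**Figure D3:**
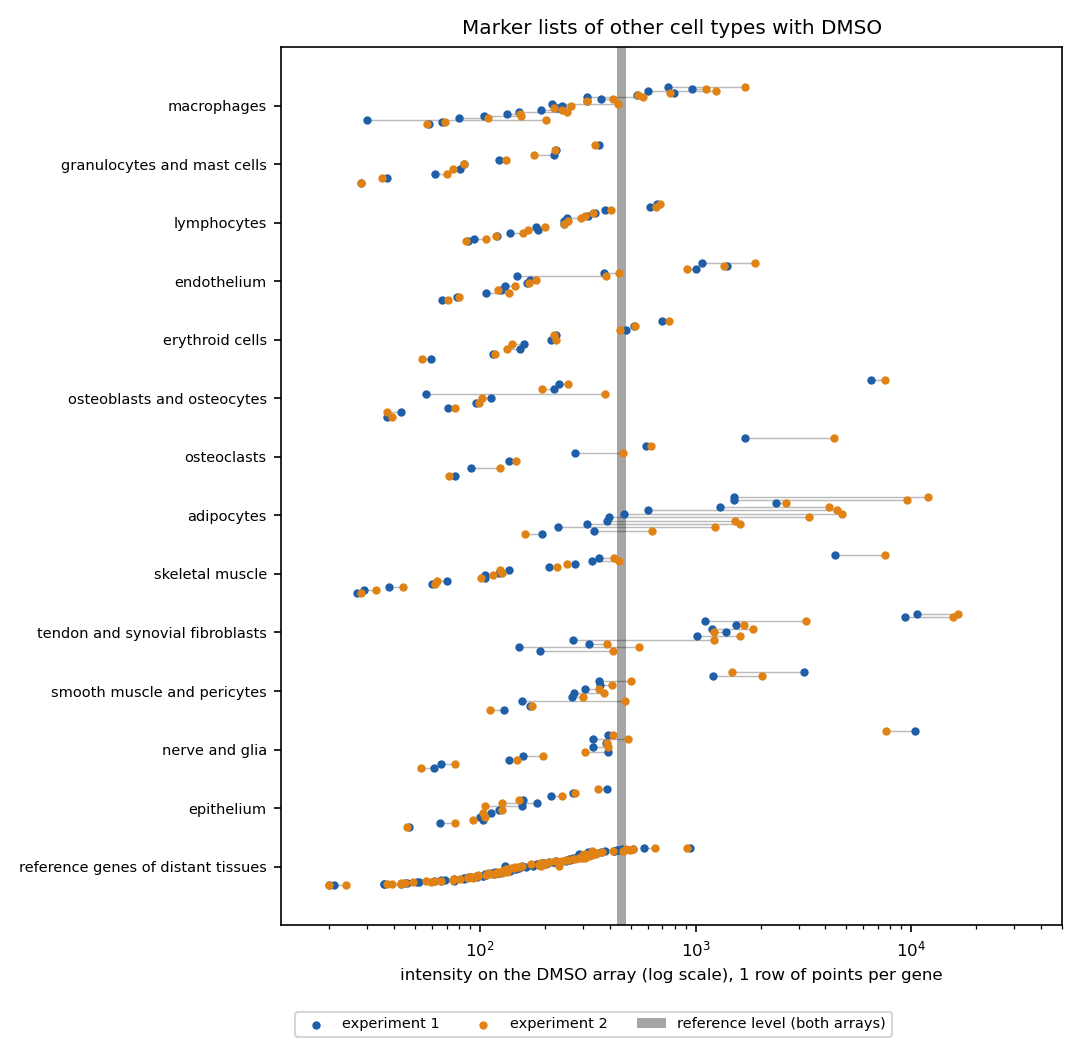
Intensity on the DMSO arrays (horizontal log axis) of the measured marker genes of 13 other cell types and of the 86 reference genes (vertical axis), 1 row of points per gene, in blue for experiment 1 and in orange for experiment 2. The grey band is the reference level, and the widest gaps between the arrays are those of adipocyte genes such as Plin1, which read 395 and 3354.

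The 2 DMSO arrays stand for 2 cultures, and the differences between them were examined next. With DMSO, 285 genes (2.0%) differed by 2-fold or more, 198 of them higher in experiment 2 and 87 higher in experiment 1. With 1 array each these differences have no error of their own. The same contrast was therefore tested on the 6 arrays of U0126, TNFα and both, with limma and a term for treatment. The 2-fold threshold and the ranking of the differences used the DMSO arrays alone, but the lists were drawn up with earlier results of all 8 arrays known. Those arrays may come from the same cell isolations as the DMSO arrays, so the test compares these 2 experiments and nothing wider. Among all genes 1901 (13.4%) were higher and 1485 (10.4%) were lower in experiment 2 at a Benjamini-Hochberg adjusted p under 0.05. The median gene differed by -0.02 on the log2 scale. Of the 285 genes, 260 passed in the same direction. Over probe sets the count was 8097 of 31042 (26.1%), which fell to 5175 without either U0126 array and to 3489 without either array of U0126 and TNFα.

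The 10 largest differences with DMSO toward experiment 2 included Plin1, Fabp4, Lpl, Cfd and Gpd1 of the adipocyte list. Cd36, the fatty acid transporter, had intensities of 117 and 1205, and was 10.3-fold higher with DMSO and between 9.67-fold and 13.6-fold higher in the 3 treated pairs (limma log2 difference 3.52, standard error 0.10, adjusted p = 1.65e-04). Gpd1, which makes glycerol phosphate for lipids, had 464 and 4777, a 10.2-fold difference. Fabp4, the fatty acid binding protein of adipocytes, had 1508 and 11920, and Lpl, lipoprotein lipase, had 1501 and 9579. The others among the 10 largest were Plin1, Cfd (604 and 4529), the adipocyte protease adipsin, Car3, a carbonic anhydrase of fat and muscle (1449 and 9263), Mgst1, a glutathione transferase (859 and 7064), Col6a6 (182 and 1289) and Pla2g2a, a secreted phospholipase (504 and 4299). Of these 10, 9 passed the test, and all 3 treated pairs went the same way for each. Pla2g2a did not pass with all 6 arrays (adjusted p = 0.0691 by limma), and its treated pairs ranged from 1.32-fold to 9.52-fold. It passed without either U0126 array (adjusted p = 0.0312 by limma) or without either TNFα array (0.0217).

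Of the 12 adipocyte genes 10 were higher in experiment 2 on the treated arrays, against 13.4% of all genes. In the list 0 were lower, and Lipe and Lep did not pass. The median log2 difference of the list was 2.38 with DMSO and 2.32 on the treated arrays, beside 0.02 and -0.02 over all genes. The summed intensity of the list was 9599 and 46080 with DMSO, between 6948 and 8656 on the treated arrays of experiment 1 and between 33464 and 45343 on those of experiment 2. The ranges of the experiments did not overlap. The count of 10 was the same without any single treated array. The nuclear receptor Pparg, which drives adipocyte formation, had 229 and 1228 with DMSO and was 4.84-fold higher in experiment 2 on the treated arrays (adjusted p = 1.67e-04 by limma).

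Most tendon and synovial genes went the same way by smaller amounts. So did most collagens of fibrous tissue and basement membrane, called fibrous collagens here. In the tendon and synovial list 8 of 11 were higher, against 13.4% of all genes, and 0 were lower. Tnmd was 3.99-fold higher on the treated arrays (adjusted p = 5.40e-04 by limma). Scx, the other defining marker, was the only member lower in experiment 2 with DMSO (1382 and 1215). Pdgfra, at 10581 and 16465 with DMSO, did not pass (adjusted p = 0.0928 by limma). Of the 17 fibrous collagens 10 were higher and 0 lower, a count that was 5 without either array of U0126 and TNFα. Col4a1, a basement membrane chain on that list, was 2.37-fold higher on the treated arrays (adjusted p = 3.82e-04 by limma). Col1a1 was 1.15-fold higher (adjusted p = 0.0326 by limma), but its call and that of Col1a2 were lost when any single treated array was left out. Of 19 macrophage genes 9 were higher, among them Ctss (2.09-fold, adjusted p = 5.17e-04 by limma) and also Adgre1 and Csf1r, which with DMSO lay below the reference level.

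**Figure D4:**
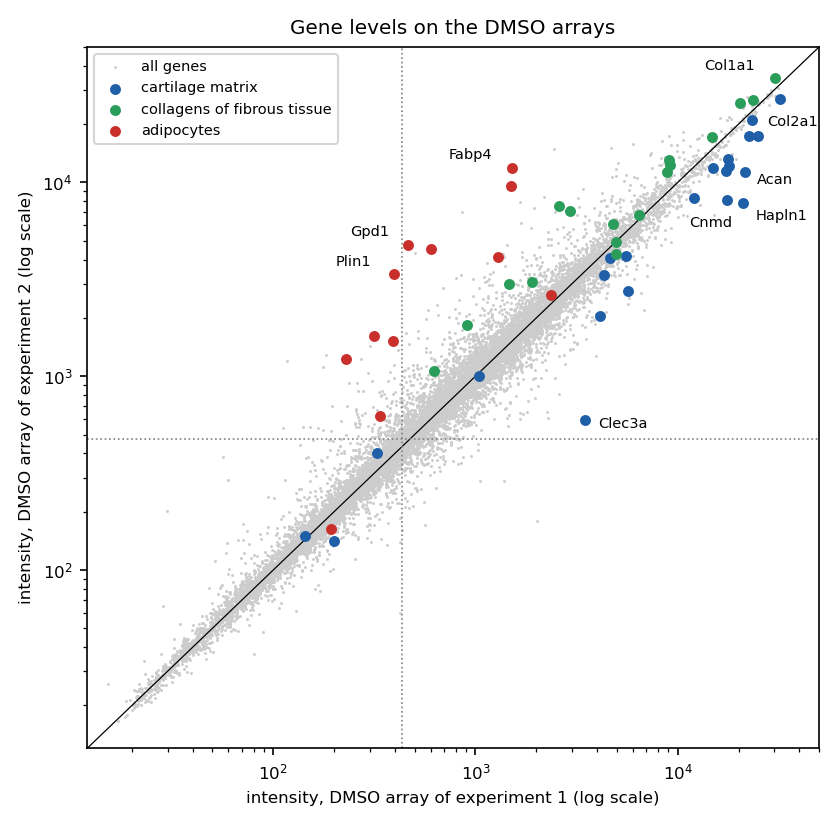
Intensity of each named gene on the DMSO array of experiment 1 (horizontal log axis) and experiment 2 (vertical log axis), with all genes in grey and 3 lists in colour. Dotted lines mark the reference levels, and most adipocyte genes lie above the diagonal of equal values while cartilage genes such as Hapln1 (21083 and 7836) lie below it.

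Cartilage matrix genes went the other way. Of 22 measured, 19 were lower in experiment 2 on the treated arrays and 0 higher, against 10.4% of all genes lower, with a median log2 difference of -0.48 with DMSO and -0.52 on the treated arrays. Cilp2, Cytl1 and Crtac1 did not pass. Ucma and Chad, although below the reference level with DMSO, were among those that passed, and Ucma was higher in experiment 2 with DMSO. Hapln1 was 2.20-fold higher in experiment 1 on the treated arrays (standard error 0.05 of a log2 difference of -1.14, adjusted p = 3.82e-04 by limma), Cnmd 1.88-fold and Acan 1.81-fold. Clec3a had the widest gap with DMSO, 5.91-fold, and was 3.20-fold higher in experiment 1 on the treated arrays. Col2a1 was 1.17-fold higher in experiment 1 by its brightest probe set (adjusted p = 0.0250 by limma), which lies near the top of the scale. With DMSO its other 2 probe sets went opposite ways, at 2770 and 1104, and at 853 and 1955, so the size of its difference is uncertain. The call of the brightest was lost when any single treated array was left out, and that of Matn1 without either array of U0126 and TNFα. Without single arrays 14 to 17 members were lower. The summed intensity of the list was 272223 and 185842 with DMSO, and on the treated arrays its ranges of 210461 to 283595 in experiment 1 and 151025 to 199074 in experiment 2 did not overlap.

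Lists of factors and enzymes gave mixed counts. Of the chondrocyte transcription factors 10 of 26 were lower in experiment 2, 3 were higher and 13 did not pass, and Sox6 was 1.83-fold higher in experiment 1 (adjusted p = 6.71e-04 by limma). Of 18 genes of glycosaminoglycan synthesis 9 were lower, 0 were higher and 9 did not pass. Of 18 genes of collagen processing 7 were lower, 3 were higher and 8 did not pass. Among all genes 10.4% were lower and 13.4% were higher, so the few higher members of these lists are near the share of all genes. Of the 10 largest falls toward experiment 2 with DMSO, all passed. Ccn1 led them at 2023 and 178, 11.4-fold with DMSO and 10.8-fold on the treated arrays. The others were Clec3a, Irs1, Slc26a2, Slc16a3, a lactate exporter (2276 and 607), Ndufa4l2 (2268 and 652) and Mgarp (1049 and 288), both mitochondrial proteins known from the response to low oxygen, PCOLCE2, an enhancer of procollagen cleavage (6804 and 2198), Colgalt2, which adds galactose to collagen (2581 and 806), and Ddx3x-ps1 (3943 and 1276).

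Glycolytic genes were also lower, 11 of 17 against 10.4% of all genes, with Ldhb higher. Ldha, the lactate dehydrogenase subunit induced by low oxygen, had 15732 and 11051 with DMSO, and Ldhb, the other subunit, had 1142 and 2417. The count was 4 without either array of U0126 and TNFα. By contrast 0 of 28 genes of cell division passed in either direction, and their median difference was -0.08 with DMSO and 0.02 on the treated arrays. That no call was made for them does not show that they were equal.

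**Figure D5:**
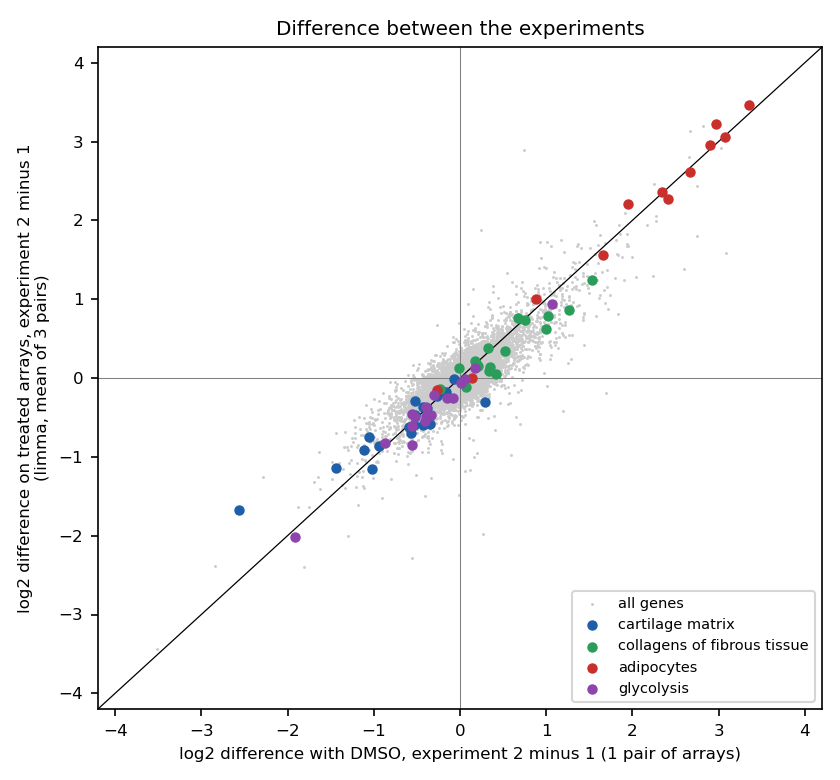
Log2 difference of each named gene, experiment 2 minus experiment 1, on the 2 DMSO arrays (horizontal axis) and on the treated arrays (vertical axis, limma estimate over 3 pairs), with all genes in grey, 4 lists in colour and the line of equal values. Adipocyte genes lie at the upper right, with medians of 2.38 and 2.32, and cartilage matrix genes mostly at the lower left, with medians of -0.48 and -0.52.

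A measure of RNA and labelling differed between the experiments as well. For 7 control transcripts with probe sets at both ends, the signal of the 5′ end as a share of the 3′ end was lower in experiment 2 in all 28 comparisons, 7 transcripts on each of 4 pairs of arrays. With DMSO it was 63.7% and 54.0% for beta-actin, 87.3% and 75.0% for GAPDH, 27.9% and 11.4% for hexokinase, and 24.1% and 13.5% for the dap spike, a bacterial transcript. The 3 other bacterial controls also had lower shares in experiment 2, such as 39.6% and 20.0% for phe. With U0126 and TNFα the gap was narrower than with DMSO for each transcript, such as 85.5% and 82.8% for GAPDH and 67.5% and 67.1% for the lys spike. The part of this measure in the differences between the experiments was not tested. Most markers of adipocytes, of tendon and synovial fibroblasts and of cartilage moved with the experiment together, so their parts cannot be told apart in these arrays.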

How the data were processed

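Gene expression was measured on 8 single-colour Affymetrix arrays, of which the 2 DMSO arrays gave all levels and the other 6 were used only to test the difference between the experiments. The deposited intensity values are 1 summary per probe set and array, for which the submitters' notes name RMA as the tool the authors used, without a version. The methods describe raw values divided by the 50th percentile of each chip and by DMSO in GeneSpring, and neither step is present in the values. If RMA was run on all arrays together, they were made alike in distribution, which would hide a shift of all genes. No detection calls were used, and the number of arrays limits the precision. Of 31099 probe sets, 57 controls were left out. The array annotation of 2016 gave 1 symbol to 20826 of the rest, several to 436 and none to 9780, and the identifiers of 20758 were found in RefSeq's gene table (GRCr8).

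Log2 values were centred on the median of each array, while the intensities printed are those deposited. Where several probe sets named a gene, that of highest mean over the DMSO arrays was used. Lists were described by how many members lay above the reference level or in the highest 10% of genes, with no test of a list. Replicate numbers in the labels were read as experiments. After removal of treatment means, arrays of the same number correlated at 0.728 to 0.829 between treatments. The 6 treated arrays were fitted with limma 3.58.1 (R 4.3.3), with treatment and experiment as terms, 2 residual and 3.824 prior degrees of freedom. Benjamini-Hochberg adjustment ran over 31042 probe sets, and the threshold was 0.05. The fit was tested on simulated data. Nothing in the labels says that a replicate number marks separate litters. The p values rest on how far the difference between the experiments varied among the treatments, pooled with a prior over probe sets. They do not measure the spread between cultures of 1 treatment. Python 3.11.15 with numpy 2.4.6, pandas 2.3.3 and matplotlib 3.10.9 was used for tables and plots.

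The genes, the 39 lists and the tests were chosen with earlier results of these data known. Named by rule were the 30 brightest genes, the chondrocyte markers, up to 6 of the brightest and every defining member of a list, the 10 largest differences in each direction between the DMSO arrays among genes above the reference level on at least 1 of them, and the genes next to each threshold. Other members of the lists were named after their values were seen. Alternatives were other percentiles and genes for the reference level, no centring, quantile normalization, the dimmest probe set or the median over probe sets, a filter on low values, other priors, all 8 arrays, and leaving out each array.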

Additional observations from a re-analysis of the deposited data

How the results depend on the processing

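Of the 852 alternative values, 372 were differences of single genes between the experiments, and none of these reversed direction. The rest were counts, percentiles and overlaps, which have no direction to reverse. The count of genes above the reference level was 8339 and ran from 6303 with the dimmest probe set of a gene to 9103 with the 90th percentile as reference, with 8516 without replicate 1, 8734 without replicate 2 and 7968 with 18 olfactory receptor genes as the reference. The 30 brightest genes kept 22 to 30 of their number. Of 351 list counts 331 stayed within 1.5 times. With the 99th percentile the macrophage count of 5 above the level became 3. With the dimmest probe set the count of other tyrosine kinase, neurotrophin and neuropilin receptors fell from 13 to 8. That of TGF-β and BMP receptors and Smads then fell from 13 to 6 and that of contractile genes from 10 to 6.

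The number of probe sets that differed between the experiments was 8097 and ran from 3489 to 6680 without single treated arrays, and from 6469 to 9599 under the other alternatives. Leaving out either array of a treatment gave the same value, since the other then informs only its treatment term. Without single arrays, cartilage matrix genes lower in experiment 2 were 14 to 17, fibrous collagens higher 5 to 8, tendon and synovial genes higher 6 to 9, glycolytic genes lower 4 to 10, macrophage genes higher 6 to 9 and adipocyte genes higher 10 in each case. Macrophage genes higher fell from 9 to 5 without the lowest 40 percent of probe sets, where fewer of them were tested. Of 372 values of single genes 346 stayed on their side of the threshold, 21 lost a call and 5 gained one. Col1a1 also lost its call under quantile normalization (adjusted p = 0.057 by limma), and Pla2g2a gained one with all 8 arrays (adjusted p = 0.0199 by limma), which include those that chose it. No paired analysis was possible because the replicate number is itself the contrast tested and cannot also be a block. The arrays were paired by treatment instead, through its term in the fit. Array signal limits what can be said of genes near or below the reference level, whose levels may be background.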
